A study of Mus musculus with 12 samples.

Results

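The genes described here belong to the transforming growth factor beta (TGF-beta) and bone morphogenetic protein (BMP) pathways, 41 genes chosen by name: ligands, proteins that process, store or block them, receptors, Smad proteins, Smad regulators and Id target genes. The 4 deposited tables name 10751 genes in all, and 34 of the 41 stand in at least 1 table. The tables come from mouse primary keratinocytes, isolated from newborn epidermis and grown to passage 3 on 3T3 fibroblast feeder cells that mitomycin C had stopped from dividing, in medium low in calcium. Differentiated cells at day 4 after a calcium shift were compared with undifferentiated cells at day 0. For each day there were 3 libraries enriched for N6-methyladenosine (m6A) by an antibody and 3 input libraries of the same kind of polyadenylated RNA without enrichment, 12 in all. The labels give no strain or genotype and do not tie replicates to animals, so the p-values rest on a spread between libraries that may be technical.

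TGF-beta and BMP ligands are secreted dimers that bind pairs of serine/threonine kinase receptors. The receptors phosphorylate receptor Smads, which join Smad4 and enter the nucleus to bind target genes: TGF-beta and activins act mainly through Smad2 and Smad3, BMPs through Smad1, Smad5 and Smad9. In epidermis TGF-beta restrains keratinocyte proliferation, and the Id genes are direct targets of BMP signalling. m6A is the internal methylation of mRNA, and a peak is a stretch of a transcript enriched in the pulled-down RNA over input.

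The tables hold a single value per gene, peak or site and no column per library, so no value per sample, spread between replicates or library depth could be given, and the tests are the authors' own. The expression table lists only genes at an adjusted p under 0.05 by DESeq2. The adjustment implies 14924 genes tested, of which 7978, or 53.5%, were called. The direction of the comparison is not written in the tables. It was read as day 4 over day 0, because 466 of 497 listed genes with peaks at day 4 only had positive changes, against 32 of 797 with peaks at day 0 only. All 10 keratinocyte markers checked, among them Krt5, Krt14 and Trp63, carried peaks on both days. All were also called changed in expression, against 53.5% of all tested genes. At day 4, 6 were higher: Krt15, Krt14, Krt5, Dsp, Perp and Cdh1. The 4 lower ones were Cdh3, Itgb4, Trp63 and Itga6. Of 18 fibroblast and feeder markers, 11, including Col1a1, Col1a2, Col3a1, Vim and Thy1, stood in no table. Such genes were not called or not tested, and their levels are unknown. The other 7 were listed, 5 higher and 2 lower at day 4 (38.9% called, against 53.5% of all tested genes). In the authors' deposited table the log2 fold changes ran from 5.18 for Col5a2 (mean normalized count 5.63), 4.58 for Col5a1, 3.66 for Postn, 2.97 for Acta2 and 1.73 for Pdgfra to -2.07 for Col6a1 and -2.42 for Col6a2. Without values per library the summed level of these markers per day could not be formed. Their part in the results on ligands and matrix proteins was not tested, and a change in the number of cells of a type cannot be told apart from a change in RNA per cell.

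Of the 41 genes, 21 were called changed in expression, 13 higher and 8 lower at day 4, against 27.1% higher and 26.4% lower among all tested genes. That is 51.2% of the list, close to the 53.5% of all tested genes that were called. The list may hold genes that were not tested, so these shares do not have the same base. The same holds for the shares by role and by list below. The number of changes was not read as particular to this pathway. The other 20 genes were not listed, which means not called or not tested, and 13 of those carried an m6A peak on at least 1 day. Smad6, Bmp2, Bmp4, Bmp7, Fstl1, Ltbp2 and Id4 stood in none of the 4 tables. The median log2 fold change of the 21 listed genes was 0.38, against 0.26 over all listed genes, and the median size of change without its sign was 0.94 against 0.81. A change of at least 2-fold was seen in 5 higher and 3 lower genes, and over all tested genes 11.3% were higher and 9.90% lower by that much. The standard errors had a median of 0.13 on the log2 scale, against 0.14 over all listed genes.

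**Figure D1:**
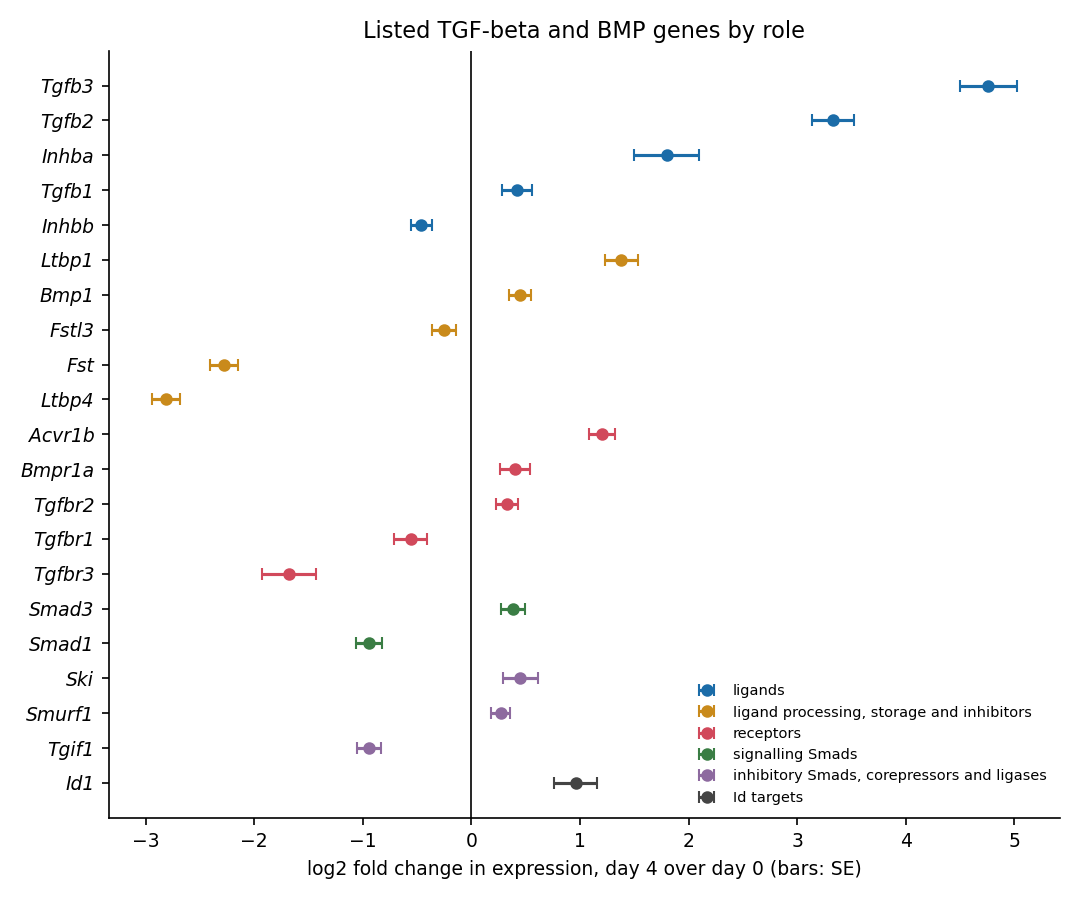
Log2 fold change in expression, day 4 over day 0, for the 21 listed genes, ordered by role, with bars for the authors' standard error. Tgfb3 and Tgfb2 lie far to the right and Ltbp4, Fst and Tgfbr3 to the left, while the other receptors and the Smads lie between -0.94 and 1.20.

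The ligands had the widest rises. Tgfb3 (ENSMUSG00000021253, chromosome 12 from 86056743 to 86079041 in mm10) was 27.1-fold higher at day 4 per the authors' deposited table, a log2 fold change of 4.76 (SE 0.26, DESeq2 adjusted p = 4.6e-72) at a mean normalized count of 153. Tgfb2 (ENSMUSG00000039239, chromosome 1 from 186622787 to 186709697) was 10.1-fold higher (log2 fold change 3.33, SE 0.19, DESeq2 adjusted p = 4.6e-67) at a mean normalized count of 481 per the authors' deposited table. Tgfb1, the isoform for which the family is named, rose far less, by 1.33-fold in the authors' deposited table (log2 fold change 0.42, SE 0.14, DESeq2 adjusted p = 0.00853, mean normalized count 799). The 95% intervals of the log2 changes did not overlap: 4.25 to 5.27 for Tgfb3, 2.96 to 3.70 for Tgfb2 and 0.13 to 0.70 for Tgfb1. All 3 isoforms signal through the same receptor pair, and Tgfb2 depends more than the others on the coreceptor encoded by Tgfbr3.

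The activin subunits went apart. Inhba, which encodes the subunit of activin A, was 3.48-fold higher in the authors' deposited table (log2 fold change 1.80, SE 0.30, DESeq2 adjusted p = 7.6e-09), at the lowest level of the 21 genes, a mean normalized count of 50.4. Inhbb, which encodes the subunit of activin B, was lower at day 4 in the authors' deposited table (log2 fold change -0.46, SE 0.10, DESeq2 adjusted p = 1.9e-05), at the highest mean normalized count among them, 3762. The BMP ligand genes Bmp2, Bmp4 and Bmp7 stood in no table. In total 4 of 8 ligand genes were higher, 1 was lower and 3 were not listed (62.5% called, against 53.5% of all tested genes).

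Proteins that store and block the ligands also split. Ltbp1 and Ltbp4 encode latent TGF-beta binding proteins, which tether the latent ligand to the matrix. Ltbp1 was 2.61-fold higher at day 4 per the authors' deposited table (log2 fold change 1.38, SE 0.15, DESeq2 adjusted p = 7.6e-19, mean normalized count 424). Ltbp4 was 6.99-fold lower in the authors' deposited table (log2 fold change -2.81, SE 0.13, DESeq2 adjusted p = 1.1e-107, mean normalized count 1275), the largest fall among the 21. Ltbp3 was not listed, although it had peaks on both days.

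Follistatin, Fst, a secreted protein that binds activins and blocks them, was 4.85-fold lower at day 4 in the authors' deposited table (log2 fold change -2.28, SE 0.13, DESeq2 adjusted p = 2.1e-64, mean normalized count 651). Its relative Fstl3 was barely under the threshold in the authors' deposited table (log2 fold change -0.25, SE 0.11, DESeq2 adjusted p = 0.0496). Bmp1, a protease that cleaves procollagens and matrix proteins rather than a BMP ligand, was 1.37-fold higher (log2 fold change 0.45, SE 0.10) in the authors' deposited table. Of the 8 genes in this group, 2 were higher, 3 lower and 3 not listed (62.5% called, against 53.5% of all tested genes).

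**Figure D2:**
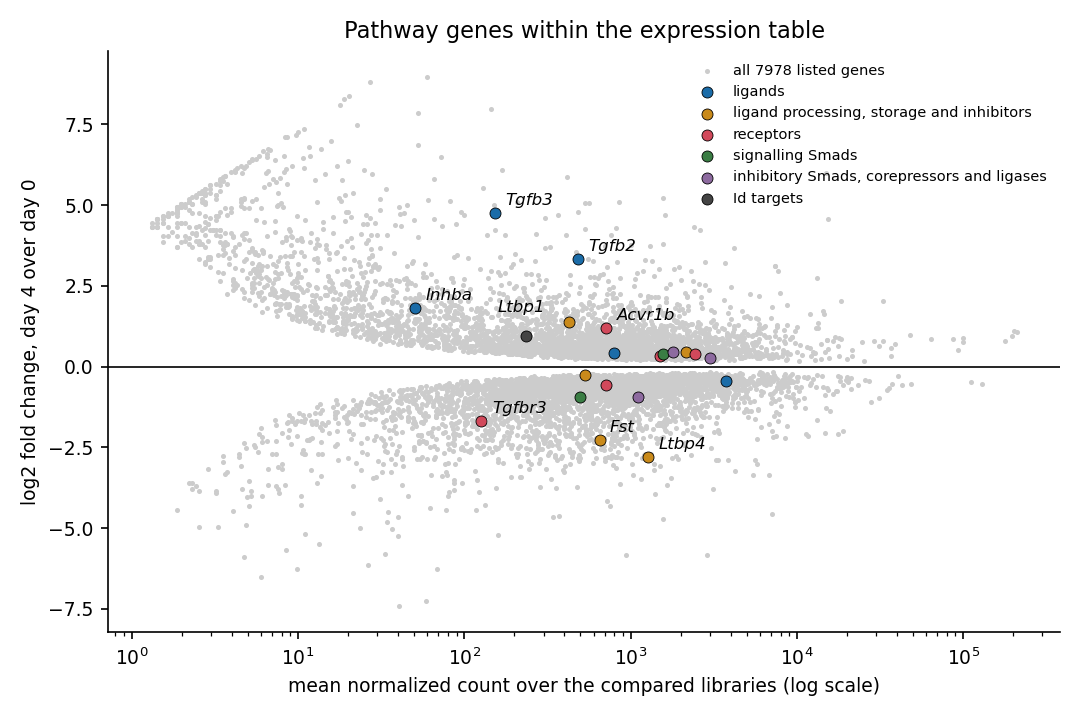
Mean normalized count over the compared libraries (log scale) against log2 fold change, day 4 over day 0, for all 7978 listed genes in grey and the 21 pathway genes in colour by role. The 8 genes changed at least 2-fold are named, and Inhba is the only coloured point under a mean of 100; the empty band around 0 is there because only called genes are listed.

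Among receptors, 3 of 9 were higher, 2 lower and 4 not listed (55.6% called, against 53.5% of all tested genes). Acvr1b, the type I receptor of activins also called Alk4, was 2.30-fold higher at day 4 per the authors' deposited table (log2 fold change 1.20, SE 0.12, DESeq2 adjusted p = 2.7e-24, mean normalized count 713). Tgfbr3, or betaglycan, the coreceptor that presents TGF-beta to the signalling receptors, was 3.20-fold lower (log2 fold change -1.68, SE 0.25, DESeq2 adjusted p = 7.2e-11, mean normalized count 127) per the authors' deposited table. The signalling pair for TGF-beta moved slightly and in opposite directions in the authors' deposited table, Tgfbr2 at 0.33 (SE 0.10) and Tgfbr1 at -0.56 (SE 0.15) on the log2 scale. Bmpr1a, a type I BMP receptor, had a log2 fold change of 0.40 (SE 0.14) in the authors' deposited table. The type II receptors Bmpr2, Acvr2a and Acvr2b and the type I receptor Acvr1 were not listed.

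Smad1, a BMP receptor Smad, was 1.91-fold lower at day 4 (log2 fold change -0.94, SE 0.12, DESeq2 adjusted p = 8.6e-15, mean normalized count 497) per the authors' deposited table. Smad3, a receptor Smad for TGF-beta and activin, was 1.30-fold higher in the same comparison (log2 fold change 0.38, SE 0.11, DESeq2 adjusted p = 0.00152 in the authors' deposited table). Smad2, Smad4 and Smad5 were not listed, nor were the inhibitory Smads, Smad6 and Smad7. Of the Smad regulators, the corepressor Tgif1 was 1.92-fold lower (log2 fold change -0.94, SE 0.11) in the authors' deposited table. The corepressor Ski was 1.36-fold higher (log2 fold change 0.45, SE 0.16, DESeq2 adjusted p = 0.00861, mean normalized count 1796) per the authors' deposited table. The ubiquitin ligase Smurf1, which marks Smads and receptors for degradation, had a log2 fold change of 0.27 (SE 0.09) in the authors' deposited table. Skil and Smurf2 were not listed.

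Id genes encode helix-loop-helix proteins that lack a DNA-binding region and hold back differentiation factors. Id1 was 1.94-fold higher at day 4 per the authors' deposited table (log2 fold change 0.96, SE 0.20, DESeq2 adjusted p = 4.1e-06, mean normalized count 234). Id2, Id3 and Id4 were not listed, and Id2 and Id3 had m6A peaks on both days.

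A further 78 genes of the pathway were taken from 5 lists of textbook roles, and 37 of them were listed, 22 higher and 15 lower (47.4% called, against 53.5% of all tested genes). The list of 21 target genes was chosen with earlier results of these data known. Of these, 10 were higher and 5 lower (71.4% called, against 53.5% of all tested genes). Because of that choice, the share was not read as a response of target genes. The cell cycle inhibitor Cdkn2b, a direct TGF-beta target in keratinocytes, was higher with a log2 fold change of 2.30 (SE 0.16, DESeq2 adjusted p = 4.8e-43) in the authors' deposited table. The transcription factor Bhlhe40 (1.53, SE 0.13) and the matricellular growth factor Ccn2, listed as Ctgf (1.15, SE 0.14), were higher as well in the authors' deposited table. Timp3, an inhibitor of matrix metalloproteinases (-0.74, SE 0.18), and the transcription factor Snai2 (-0.58, SE 0.11) went the other way in the authors' deposited table.

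Extracellular inhibitors and activators outside the 41 had 6 of 19 higher and 1 lower (36.8% called, against 53.5% of all tested genes). Among the rises, Itgb8 and Nbl1 had low mean normalized counts, 22.7 and 27.9. Thrombospondin Thbs1, an activator of latent TGF-beta, had a log2 fold change of 2.36 (SE 0.34), the protease Htra1 0.89 (SE 0.08) and the integrin Itgb6, whose dimer with Itgav releases TGF-beta, 0.55 (SE 0.14) in the authors' deposited table. Lrrc32, a membrane anchor for latent TGF-beta also known as Garp, was lower (-1.50, SE 0.11) in the authors' deposited table. Intracellular regulators had 4 of 19 higher and 5 lower (47.4% called, against 53.5% of all tested genes). Pmepa1, a feedback inhibitor induced by TGF-beta, had a log2 fold change of 1.31 (SE 0.12), the ubiquitin ligase Nedd4l 0.86 (SE 0.10) and the kinase Map3k7 0.46 (SE 0.11), against -0.84 (SE 0.14) for the Smad anchor Zfyve9, -0.66 (SE 0.11) for Usp15 and -0.61 (SE 0.10) for Fkbp1a, in the authors' deposited table. Receptors and coreceptors had 1 of 9 higher and 3 lower (44.4% called, against 53.5% of all tested genes). In the authors' deposited table the BMP coreceptors went apart, Rgmb at 0.47 (SE 0.17) and Rgma at -0.75 (SE 0.21), beside -0.61 (SE 0.14) for Bmpr1b and -0.41 (SE 0.13) for Neo1. Other ligands had 1 of 10 higher, Bmp8a (0.89, SE 0.17 in the authors' deposited table), and 1 lower.

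**Figure D3:**
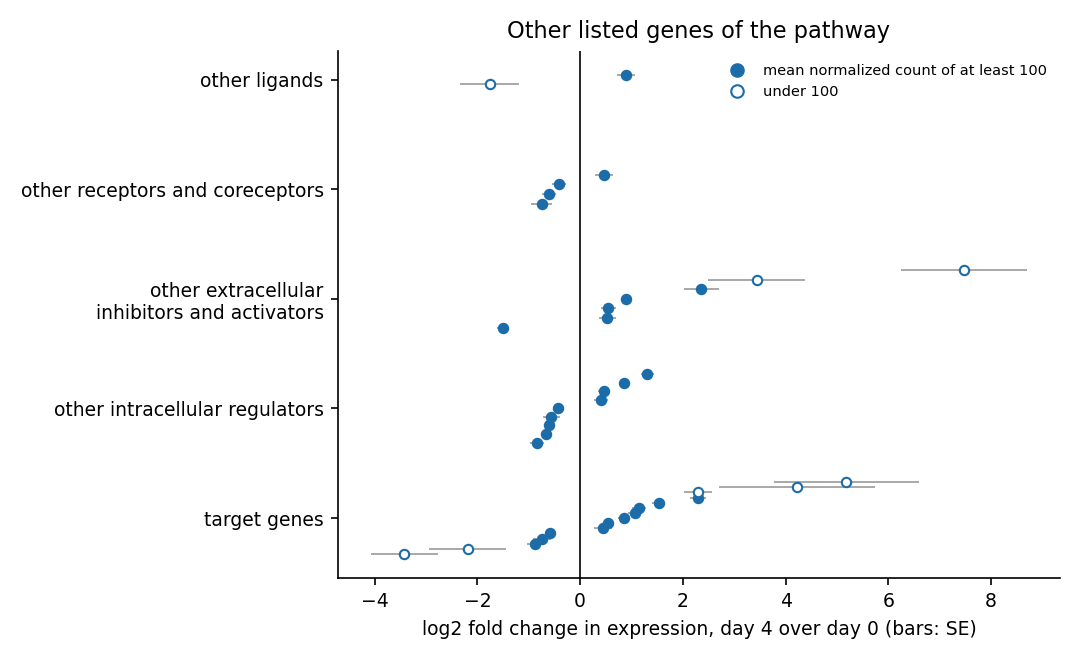
Log2 fold change in expression, day 4 over day 0, of the 37 listed genes among 78 further pathway genes, by list, with bars for the authors' standard error. Filled points have a mean normalized count of at least 100, and the changes past 3 in size belong to open points, with low counts and wide bars.

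Promoter sequence, from RefSeq (GRCm38.p6), is shown for Tgfb2 and Ltbp1, a ligand and the protein that stores it, which both rose by over 2-fold. The choice was made after the values were seen. Each line gives the 250 bases before an annotated start, 5′ to 3′ on the gene's strand. The Tgfb2 stretch is chr1:186705990-186706239 on the minus strand and the Ltbp1 stretch chr17:75005279-75005528 on the plus strand, at the more 5′ of its 2 starts. The Tgfb2 stretch lies inside the annotated span of the gene, whose 5′ end is at 186709697. The Ltbp1 stretch runs past the 5′ end of its gene span, at 75005480. Capitals mark the Smad-binding motif CAGAC or its reverse complement GTCTG, the cAMP response element TGACGTCA, the E-box CACGTG and the TATA motif TATAAA or its reverse complement TTTATA, each searched on both strands.
Tgfb2: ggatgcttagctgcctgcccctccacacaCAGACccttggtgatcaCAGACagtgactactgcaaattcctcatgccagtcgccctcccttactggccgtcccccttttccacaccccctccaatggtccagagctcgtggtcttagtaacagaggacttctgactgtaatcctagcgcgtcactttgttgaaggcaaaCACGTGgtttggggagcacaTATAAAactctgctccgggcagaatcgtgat
Ltbp1: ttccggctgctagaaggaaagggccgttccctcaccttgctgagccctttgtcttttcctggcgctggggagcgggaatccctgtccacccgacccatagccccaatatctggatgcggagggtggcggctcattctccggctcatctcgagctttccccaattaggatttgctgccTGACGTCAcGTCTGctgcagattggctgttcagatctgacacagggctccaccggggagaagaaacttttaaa
Tgfb2 held CAGAC at -221 and -204 from the start, CACGTG at -51 and TATAAA at -31, and Ltbp1 held TGACGTCA at -73 and GTCTG at -64. The promoter table had 40 such windows for 30 of the 41 genes. CAGAC in either direction was in 17 of these 40 windows (42.5%), against 42.2% of all 32851 windows. TGACGTCA was in 1 of 40 windows, that of Ltbp1, and in 1.55% of all windows, and CACGTG was in 3 of 40 windows (7.50%), against 6.02%. TATAAA in either direction was in 3 of 40 windows (7.50%), against 12.4% of all windows. A match is a run of letters and not a measured binding site.

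The peak lists show where m6A lay on these transcripts. There were 77 peaks in 29 of the genes at day 4 and 74 peaks in 29 genes at day 0, or 2.66 and 2.55 per methylated gene, against 2.65 and 2.70 over all genes with peaks. A peak was listed on both days for 27 genes, at day 4 only for Tgfb3 and Ltbp1, at day 0 only for Fst and Acvr2b, and on neither day for 10. Over the whole series 7992 genes held a peak, and 6332 of them stood in each peak list. The day 4 list alone held 613 and the day 0 list alone held 1047. Single-day listing was therefore no more frequent among the 31 pathway genes with a peak. Among the 21 genes called in expression, 18 had a peak (85.7%), against 65.7% of all listed genes. The 21 had a median mean normalized count of 713, against 509 over all listed genes, and the part of level in this difference was not tested. All peaks lay inside the annotated span of their gene. Within 1000 bp of the annotated 3′ end lay 28.6% of the day 4 and 27.0% of the day 0 peaks of these genes, close to the 31.1% and 29.6% of peaks in all protein-coding genes.

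**Figure D4:**
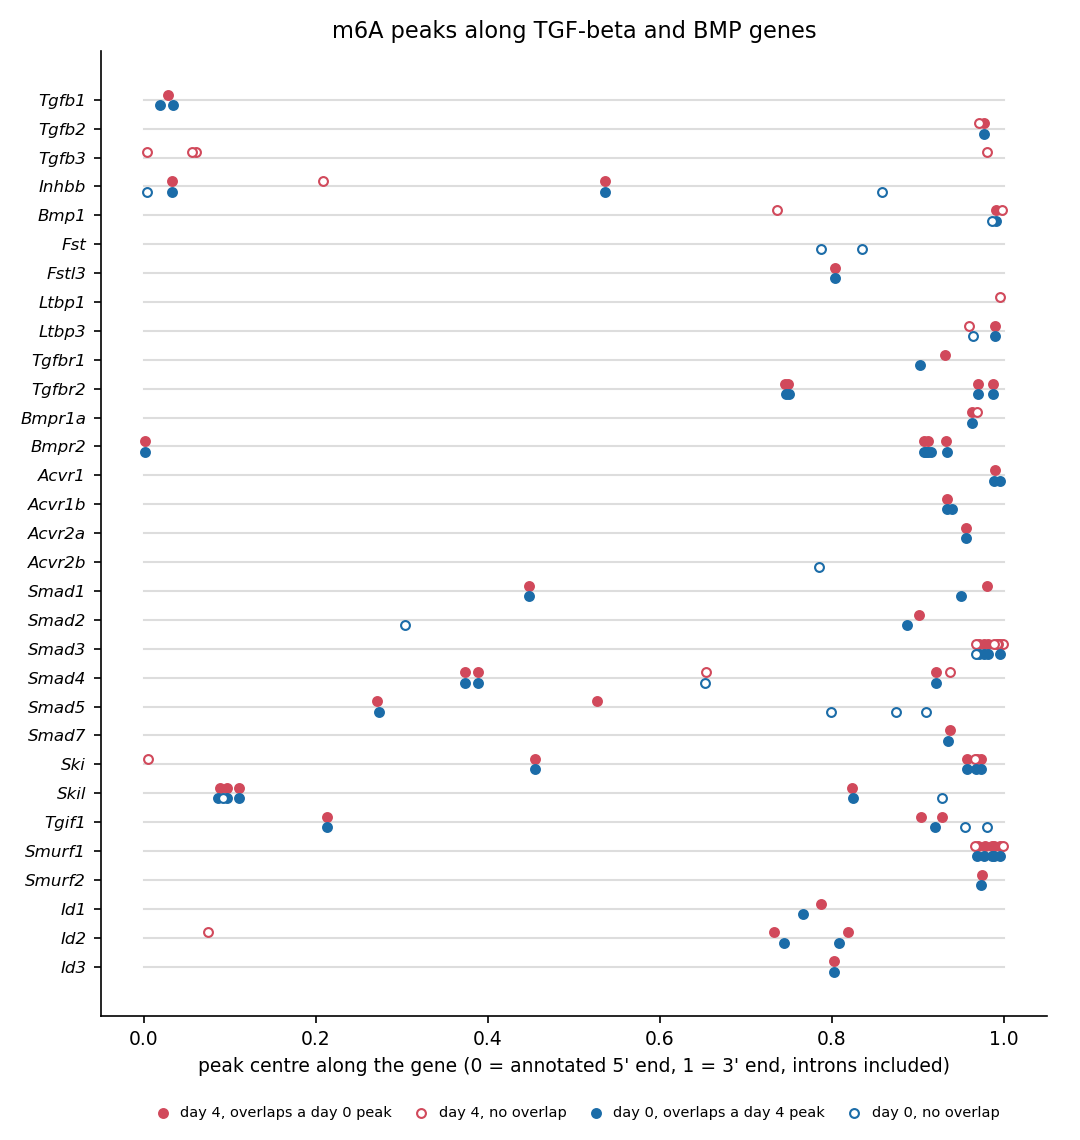
Centres of the 77 day 4 peaks (red, upper) and 74 day 0 peaks (blue, lower) along the 31 genes with a peak, from the annotated 5′ end (0) to the 3′ end (1), introns included. Filled points overlap a peak of the other day by at least 1 bp; most genes have filled points near 1, and Tgfb3 and Ltbp1 have red open points only.

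Ligand transcripts differed in where they were methylated. Tgfb3 had 4 peaks at day 4, 3 of them in the 5′ part of the gene, 50, 1195 and 1344 bp from the annotated 5′ end, and 1 weak peak 398 bp from the 3′ end (the authors' unadjusted p = 0.00812). No peak was listed at day 0. Its expression was 27.1-fold higher at day 4, as given above, and the part of transcript level in the listing of peaks was not tested. Tgfb2 had a peak at both days near its 3′ end, from 186624579 to 186625075 at day 4 and from 186624728 to 186624876 at day 0, and a further peak at day 4 only from 186625175 to 186625523. Tgfb1 was methylated at its 5′ end, in 1 peak from 25687251 to 25687749 at day 4 and, over the same stretch of chromosome 7, in 2 peaks at day 0.

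Fst and Ltbp1, among the inhibitors and storage proteins, also had listed peaks on 1 day only. Fst had no listed peak at day 4 and 2 at day 0, from 114453298 to 114453445 and from 114453594 to 114453790 on chromosome 13, and its expression was 4.85-fold lower at day 4. Ltbp1 had a peak at day 4 only, on chromosome 17 from 75390522 to 75390771, with an enrichment score of 317 that ranked 246 among the 18423 peaks of that list. These scores are the authors' own and are used here only to rank peaks within a list. Ltbp4 carried no listed peak on either day, at a mean normalized count of 1275 over the libraries of both days. Tgfbr3 and Inhba were the other genes called in expression without a listed peak. Of all listed genes, 65.7% had a peak.

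On each day the highest score of the set lay in a receptor transcript, Acvr2a at day 4 and Acvr1 at day 0. Not all receptors ranked high: the day 4 peaks of Tgfbr2 ranked from 6063 to 16408. At day 4, peaks of Ltbp1, at 246, and Tgfb2, at 312, ranked above that of Acvr1. The day 4 peak of Acvr2a, on chromosome 2 from 48898592 to 48900125, ranked 22 of 18423, and its day 0 peak, which ends at 48900174, ranked 40 of 19920. Acvr1 had a peak from 58446988 to 58448326 that ranked 323 at day 4 and one from 58447088 to 58448326 that ranked 33 at day 0. The Bmpr1a peak on chromosome 14, from 34414207 to 34414794, had identical ends on both days and ranked 167 at day 4 and 110 at day 0. Acvr2b had a single peak of 50 bp at day 0, from 119433408 to 119433457 on chromosome 9. Most peaks of Smad3 and Smurf1 lay in the last part of the gene, and these genes had 9 and 7 peaks at day 4, against 5 and 5 at day 0. Of the 9 Smad3 peaks at day 4, 5 overlapped no day 0 peak, and the scores of those ranged from 1.87 to 6.69, low within the list.

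Counted over the set, 54 of 77 day 4 peaks (70.1%) overlapped a day 0 peak of the same gene and strand, against 78.8% of all day 4 peaks. Conversely, 57 of 74 day 0 peaks (77.0%) overlapped a day 4 peak, against 70.1% of all day 0 peaks. Peaks without overlap numbered 23 at day 4 and 17 at day 0.

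The methylation table asks which sites gained or lost m6A between the days. It lists 2561 sites at a false discovery rate under 0.05, which is 6.96% of the 36796 sites that its adjustment implies were tested, 4.79% gains and 2.17% losses. Its direction was read as day 4 over day 0, because 98.8% of the sites that overlap day 4 peaks only were positive, against 25.0% of those that overlap day 0 peaks only. The pathway genes held 10 called sites in 8 genes, 7 gains and 3 losses. With 8 of 31 methylated genes (25.8%) holding a site, against 25.2% of all methylated genes, and 70.0% gains, against 68.8% over all sites, the set was near the background on both counts. The sources used here do not give the log base of these changes.

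Inhbb had the 2 largest gains of the set. Its site on chromosome 1 from 119422001 to 119422050, 198 bp from the annotated 5′ end, had a log fold change of 4.28 (false discovery rate 0.00972) per the authors' deposited table, and it coincides with a peak listed on both days. At day 0 that peak was weak, with a score of 3.55 that ranked 19005 of 19920. At day 4 it ranked 5683 of 18423. The site from 119420764 to 119420912 had a log fold change of 3.43 (false discovery rate 0.0479) per the authors' deposited table and overlaps a peak listed at day 4 only. The same transcript was lower in expression, as given above. A further Inhbb peak, from 119422199 to 119422248 at the first bases of the transcript, was listed at day 0 only. It ranked 16826 of 19920 in that list, with a score of 6.38. Part of it is printed here because the peak falls on sequence held in the RefSeq table (GRCm38.p6, chr1:119422199-119422228, minus strand). A Bmpr2 peak at day 4 also fell on such sequence and is not printed. Capitals mark a match to the core of the m6A consensus, and the 30 bases were placed to hold that match.
Inhbb: cctcgggaaaaaaaGAACagggagtggaaa
The motifs searched, on the transcript strand only, were GGAC and GAAC, and at least 1 of them was in the first 50 bases of 30.9% of all annotated starts. The match GAAC begins at base 35 of the transcript and does not overlap the other motif.

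Smad transcripts made up 5 of the 10 sites. Gains were listed for Smad2 (log fold change 3.03, false discovery rate 0.00583), Smad4 (2.11, 0.0361) and Smad7 (1.81, 0.0401) per the authors' deposited table, and none of these genes was listed in expression. The Smad4 site, on chromosome 18 from 73639063 to 73639162, has the ends of a peak listed at day 4 only. The Smad2 site, from 76261491 to 76262469, overlaps no listed peak and ends 50 bp before a peak listed at day 0 only. The Smad7 site, from 75368862 to 75368961, also overlaps no listed peak and lies 25027 bp from the nearest peak of the gene.

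Of the 3 losses, 2 were in the BMP receptor Smads. Smad1 had a log fold change of -0.70 (false discovery rate 0.0127) per the authors' deposited table at a site on chromosome 8 from 79371832 to 79372330, which holds a peak of both days, and its expression was lower as well. The Smad5 site, on chromosome 13 from 56741881 to 56741930, had an infinite loss (false discovery rate 0.0398) per the authors' deposited table and overlaps no listed peak. Smad5 had 2 peaks at day 4 and 4 at day 0, and the 3 day 0 peaks in its 3′ part, from 56733042 to 56738840, had no day 4 counterpart.

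The corepressors went apart. Ski gained at 2 sites, with log fold changes of 1.62 (false discovery rate 3.4e-09) and 0.68 (false discovery rate 0.00104) per the authors' deposited table. The larger of these gains runs from 155160848 to 155221839 on chromosome 4, 60992 bp of genome that must include introns, and its p-value was the smallest of the 10. Skil, its close relative, lost at a site from 31117007 to 31118693 on chromosome 3 (log fold change -0.67, false discovery rate 0.00513 per the authors' deposited table). Ski was slightly higher in expression and Skil was not listed.

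**Figure D5:**
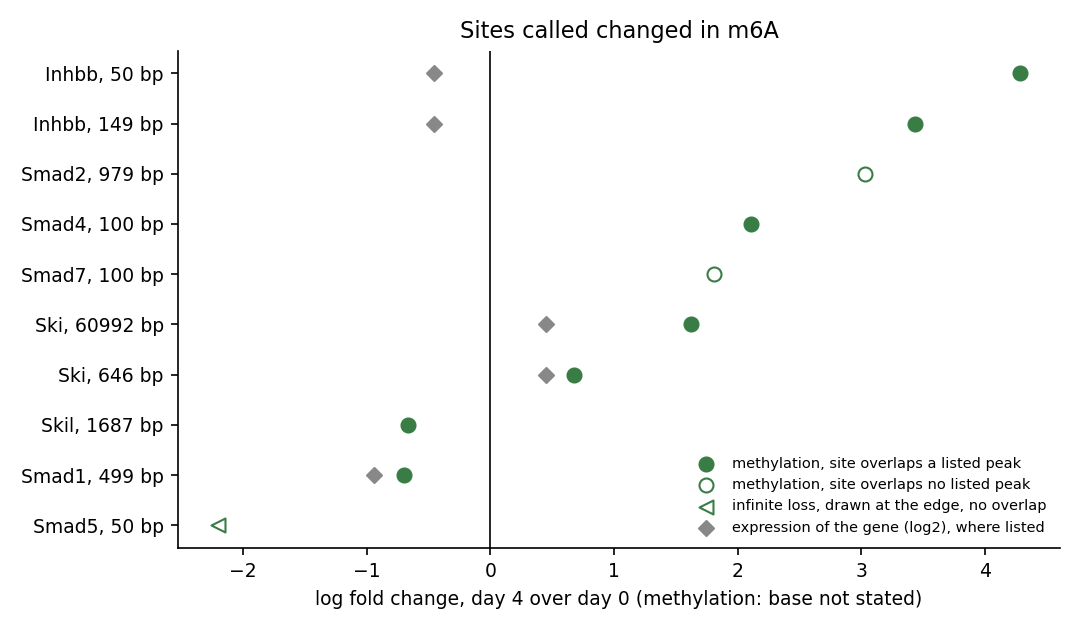
Log fold change in m6A, day 4 over day 0, at the 10 called sites (green), labelled by gene and span in bp, with the log2 fold change in expression of the gene where it was listed (grey diamonds). Inhbb lies on the positive side in methylation and the negative side in expression, Smad1 is negative in both, Ski is positive in both, and the infinite loss of Smad5 is drawn at the left edge.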

How the data were processed

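RNA was measured in 12 libraries of mouse keratinocytes, placed in groups by their titles. The submitters' processing notes name HISAT2 2.1.0, DESeq2 1.18.1 and the build mm10. The sources used here do not give the peak caller, the test behind the methylation table or the way replicates were joined. The authors' deposited expression table holds a mean normalized count (a signal), a log2 fold change with its standard error, a test statistic (a score) and an adjusted p-value. The deposited peak lists hold an enrichment score and an unadjusted p-value, and the deposited methylation table a log fold change of unstated base, treated as a score, with a p-value and false discovery rate.

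No value per library exists in these tables, so nothing was refitted: depth is unknown, and counts and medians are descriptions. The number tested was derived from adjusted p, rank and p, a step tested on simulated data. Intervals are 1.96 SE either side (95%). A mean of at least 100 and a change of at least 2-fold were used as alternatives. Peaks and sites were matched within a gene and strand by at least 1 bp. Gene spans and promoters came from RefSeq tables of GRCm38.p6, the assembly of mm10. Every listed member was named, with full values at 2-fold or with a called site. From each list of other genes up to 3 of the largest rises and falls at a mean of at least 100 were named, except 1 target gene that is not reported here. The list genes and the members were chosen with earlier results of these data known. A listed Ctgf was matched to Ccn2 by synonym. Melanocyte markers had 2 of 8 listed (25.0%), both higher. Immune and endothelial markers had 3 of 8 (37.5%), 2 higher and 1 lower, against 53.5% of all tested genes called. Python 3.11.15, numpy 2.4.6, pandas 2.3.3 and matplotlib 3.10.9 were used.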

Additional observations from a re-analysis of the deposited data

How the results depend on the processing

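Of 38 alternative counts, 29 stayed within 1.5 times the value reported and 9 did not. Among genes changed 2-fold or more, the members called in expression numbered 8 (5 higher, 3 lower), against 21, and the other pathway genes 15 (11 higher, 4 lower), against 37. With a false discovery rate under 0.01, the sites numbered 5 (4 gains, 1 loss), against 10. These settings keep fewer features by construction. At an adjusted p under 0.01, Fstl3 was the only member lost, and a mean of at least 100 removed only Inhba. Peaks at an unadjusted p under 1e-5 numbered 69 at day 4 and 68 at day 0, in 29 genes each. Sites that overlap a listed peak numbered 7, or 8 when sites within 100 bp of a peak were added, an alternative chosen after the data were seen. No paired analysis was possible because the tables hold no value per library, and for the same reason no replicate could be left out. Unknown depth limits what an unlisted gene or peak means.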
